A study of Mus musculus with 72 samples.

Results

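Cell cycle and DNA replication genes were followed as 48 named genes chosen for their function, of which 47 had a probe set carrying their symbol alone among the 18194 genes measured in this way; Ccnb1 was not analysed here. Each gene was read from 1 probe set, the one with the highest mean over all 72 arrays. The Affymetrix mouse arrays measured total RNA from Ts1Cje mice and their disomic (C57BL/6) littermates at postnatal day (P) 1, 15, 30 and 84, taken from hippocampus, cerebellum and cerebral cortex, with 3 mice in each of 24 groups and 1 array for each mouse and region. Ts1Cje mice carry 3 copies of a segment of mouse chromosome 16 (MMU16) that lies on chromosome 12 after a translocation and counts as a model of Down syndrome; both genotypes were litters of Ts1Cje males and C57BL/6 females, and all mice are given as female. No agent was given to either genotype. The members lay on 17 chromosomes (RefSeq, GRCm38.p6). Mcm4, Cdc45 and Rfc4 are on MMU16, but 0 members lay at or beyond Sod1, where the triplicated segment begins, and none is part of that segment.

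A cell that divides first loads the Mcm2 to Mcm7 helicase onto its DNA with the loading factors Cdc6 and Cdt1, then copies its genome with primase, polymerase, the clamp loader Rfc and the sliding clamp Pcna, and finally separates its chromosomes on a spindle under the control of Cdk1 and the Aurora and Polo kinases. Most of these genes are transcribed mainly in cycling cells, by E2F factors ahead of S phase and by the MuvB complexes with B-Myb and Foxm1 ahead of mitosis. In the newborn mouse the cerebellum holds the main pool of dividing precursors, the granule cell precursors of its outer layer, whereas most neurons of the cerebral cortex have already been born and the hippocampal dentate gyrus keeps a small pool for life.

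Values are log2 expression after gcRMA. The median of an array lay between 3.20 and 3.37, and a group that lies under it has no proven signal over background, so that a fold reaching down to such a group may be understated. At P1 the mean of all 47 members lay above the array median in the cerebellum, of 40 in the cerebral cortex and of 41 in the hippocampus. By P84 those counts were 21, 19 and 20. Brightness was even, with upper quartiles of 5.65 to 5.93, apart from the disomic replicate 3 arrays of P1 cerebellum (4.97), P84 cerebral cortex (5.23) and P84 hippocampus (5.51), called dim here. Scaled so that hippocampus reads 0 and cerebellum 1 at P15, the disomic replicate 3 array with the cerebellum label scored -0.02 and that with the hippocampus label 1.02; these displaced arrays were kept as labelled. Xist lay below the Y-linked Eif2s3y on 69 arrays, against the label, and above it on the 3 P1 arrays of Ts1Cje replicate 3. A gene was called, and is said to rise or fall, where limma's moderated t reached 4 in size and the p adjusted over all 45101 probe sets (Benjamini-Hochberg) did not exceed 0.05.

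Promoter sequence gives a property of the members that their choice did not use, and 3 motifs were counted in it; differences between roles were not tested. RefSeq (GRCm38.p6) held the promoter of 40 members, from 250 bases before the start of the gene to 50 after it. Letters were searched on both strands. CCAAT, the site of the NF-Y factor, stood in 32 of these promoters (80%), against 41.1% of all 27025 genes. The cell cycle homology region, written as TTTGAA or TTCGAA, stood in 19 members (47.5%) against 21.7%. E2F words, spelled TTT, then 2 letters that are each C or G, then CGC, stood in 13 members (32.5%) against 2.6%. Among 16 members of DNA replication, 8 (50%) held an E2F word and 4 (25%) the homology region. Among 12 members of the spindle, its checkpoint and mitotic exit, 0 held an E2F word and 9 (75%) the homology region. Different motifs overlapped at 1 place, in Mcm7. A match describes these letters and is no measured binding.

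For the members on which the results below turn, the 160 bases before the start are printed 5′ to 3′ on the strand of the gene, with matches of the 3 motifs on either strand in capitals. Mcm2 and Mcm6 stand for the helicase, Pcna for the replication fork, Cdk1, Top2a, Ube2c and Mki67 for dividing cells, Kif23 as the member that was called between genotypes, and Ccne1 as the member that rose with age in the cerebral cortex. Mcm6 shows 3 E2F words, a pair of them overlapping, and Top2a shows 4 CCAAT and 3 homology words. The stretch before Ccne1 holds 0 matches.
Mcm2, chr6:88898781-88898940 (-): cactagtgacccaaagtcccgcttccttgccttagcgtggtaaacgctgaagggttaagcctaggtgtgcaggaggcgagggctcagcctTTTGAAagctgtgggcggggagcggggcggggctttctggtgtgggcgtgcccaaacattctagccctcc
Mcm6, chr1:128359706-128359865 (-): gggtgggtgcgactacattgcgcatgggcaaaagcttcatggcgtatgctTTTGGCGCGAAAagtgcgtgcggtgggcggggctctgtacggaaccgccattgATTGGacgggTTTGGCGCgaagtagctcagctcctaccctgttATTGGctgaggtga
Pcna, chr2:132253181-132253340 (-): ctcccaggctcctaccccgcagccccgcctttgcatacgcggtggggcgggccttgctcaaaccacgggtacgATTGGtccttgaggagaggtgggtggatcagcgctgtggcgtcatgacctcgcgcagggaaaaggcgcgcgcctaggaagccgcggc
Cdk1, chr10:69352913-69353072 (-): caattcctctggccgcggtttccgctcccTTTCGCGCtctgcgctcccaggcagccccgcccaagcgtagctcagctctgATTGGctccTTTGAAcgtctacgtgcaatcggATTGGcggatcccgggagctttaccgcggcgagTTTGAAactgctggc
Top2a, chr11:99024190-99024349 (-): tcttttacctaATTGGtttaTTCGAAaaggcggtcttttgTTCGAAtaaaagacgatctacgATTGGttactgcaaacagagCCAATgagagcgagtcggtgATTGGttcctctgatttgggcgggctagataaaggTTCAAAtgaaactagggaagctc
Ube2c, chr2:164769769-164769928 (+): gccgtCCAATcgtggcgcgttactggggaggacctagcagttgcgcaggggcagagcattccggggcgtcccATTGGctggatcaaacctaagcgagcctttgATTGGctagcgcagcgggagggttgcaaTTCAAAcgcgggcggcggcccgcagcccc
Mki67, chr7:135716380-135716539 (-): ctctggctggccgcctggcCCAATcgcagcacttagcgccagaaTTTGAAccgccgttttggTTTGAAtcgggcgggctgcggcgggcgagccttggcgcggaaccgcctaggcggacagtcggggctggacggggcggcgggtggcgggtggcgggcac
Kif23, chr9:61946800-61946959 (-): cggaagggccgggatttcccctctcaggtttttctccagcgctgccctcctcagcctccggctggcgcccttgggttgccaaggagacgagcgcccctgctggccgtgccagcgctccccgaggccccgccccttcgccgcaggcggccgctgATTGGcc
Ccne1, chr7:38107491-38107650 (-): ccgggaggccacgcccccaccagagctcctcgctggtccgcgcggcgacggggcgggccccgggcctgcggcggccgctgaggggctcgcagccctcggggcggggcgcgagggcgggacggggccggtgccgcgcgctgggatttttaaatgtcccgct

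From P1 to P15 expression of the members fell in every region, and most steeply in the cerebellum. With genotypes averaged, 43 of 47 members fell in the cerebellum (11.0% of all probe sets fell there), 31 in the cerebral cortex (13.0%) and another 31 in the hippocampus (10.4%). Their median log2 change was -3.14 in the cerebellum, -1.01 in the cerebral cortex and -1.27 in hippocampal tissue, while the median of all probe sets was -0.04, 0.00 and -0.01. In the cerebellum all 47 changes were below 0, from -5.07 to -0.49. A single member rose anywhere, Ccne1 in the cerebral cortex, where 10.8% of all probe sets rose. In whole tissue fewer dividing cells and less RNA per dividing cell cannot be told apart.

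**Figure D1:**
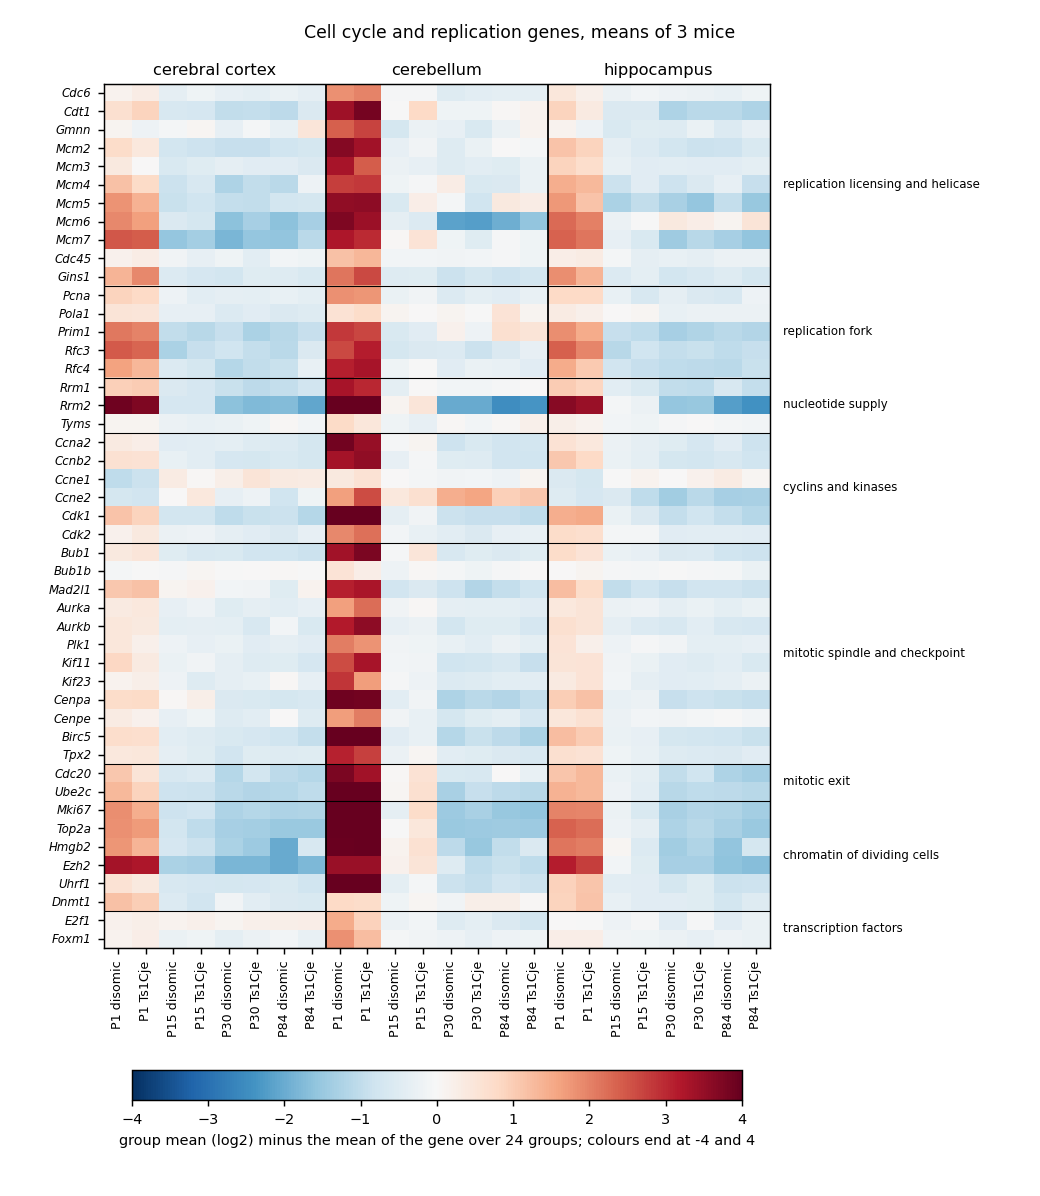
Mean log2 expression of the 47 members in each of the 24 groups of 3 arrays, each row centred on its own mean over the groups, with members ordered by role and groups by region, age and genotype. The P1 cerebellum columns of both genotypes are the highest for most rows, with 41 members called above the forebrain.

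Mki67, the proliferation antigen that coats mitotic chromosomes, had the largest fall. In the 6 cerebellar arrays of P1 its log2 level was lowest at 7.41, with a median of 9.35 and a highest value of 9.84, and at P15 the lowest, median and highest levels were 3.25, 3.82 and 4.98. The arrays of the 2 ages were far apart. The difference was -5.07 (SE 0.31, 33.5-fold, limma adjusted p = 7.17e-20). Levels at P1 were lower in the cerebral cortex (4.27, 5.47 and 6.71) and also the hippocampus (4.36, 5.84 and 7.31), and fell there by 2.45 and 2.40 to P15, where medians of 3.00 and 3.25 lie under or close to the array medians. By P30 the cerebellum had reached 2.12, 2.43 and 2.68.

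The other defining genes moved the same way. Top2a, the topoisomerase that untangles chromosomes, fell by 4.88 in the cerebellum (from 7.64, 8.40 and 9.29 to 2.93, 3.74 and 4.16), by 2.64 in the cerebral cortex and by 2.58 in the hippocampus (SE 0.25 each). Cdk1, the kinase that starts mitosis, stood at 7.06, 8.12 and 8.94 in the P1 cerebellum and at 2.80, 3.13 and 3.65 at P15, a fall of 4.88, beside falls of 1.76 (cerebral cortex) and 1.91 (hippocampus, SE 0.24). Pcna stayed well above the array medians at every age. It lay at 11.33, 11.42 and 11.84 in the P1 cerebellum and remained at 9.35, 9.50 and 9.63 at P15 and at 9.14, 9.30 and 9.66 at P84. Its fall was 2.00 in the cerebellum, 1.15 in the cerebral cortex (10.16, 10.59 and 10.80 to 8.86, 9.47 and 9.59) and 1.27 in the hippocampus (SE 0.12).

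**Figure D2:**
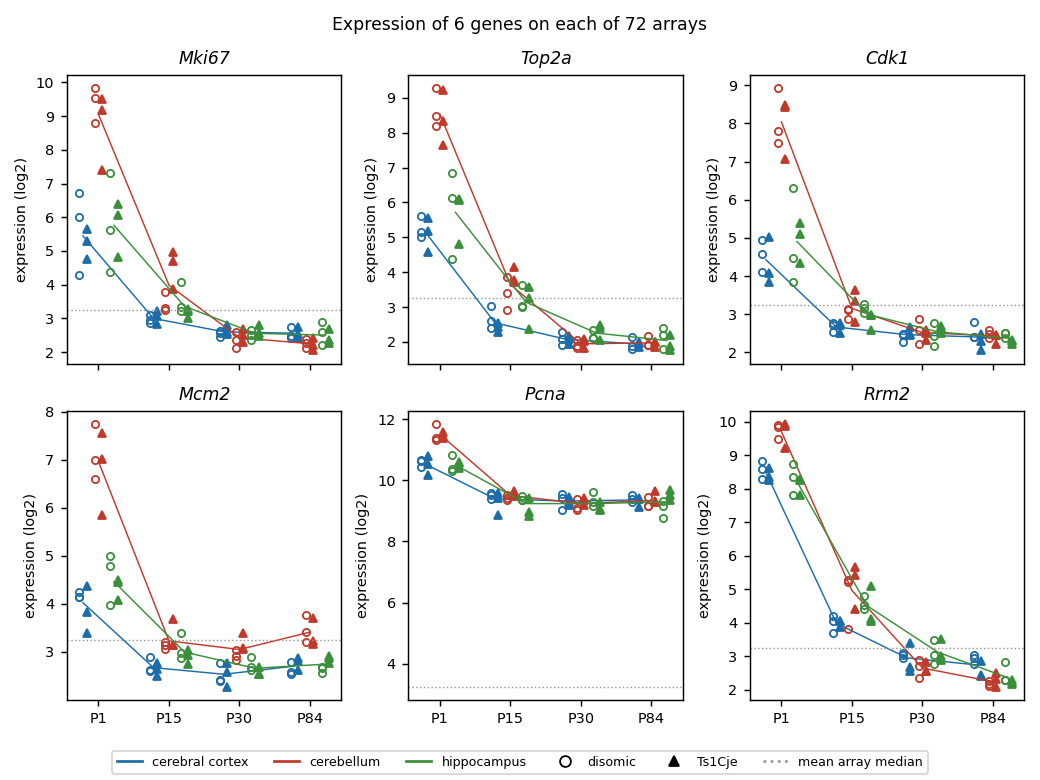
Log2 expression of Mki67, Top2a, Cdk1, Mcm2, Pcna and Rrm2 on each of the 72 arrays by age, with regions by colour and genotypes by symbol (open circles disomic, triangles Ts1Cje); each point is 1 array, solid lines join the means of a region and the dotted line is the mean of the array medians. P1 arrays lie above P15 arrays of the same region for all 6 genes.

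Licensing of replication fell in all 3 regions. Of the 11 licensing and helicase members, 11 fell in the cerebellum, 9 in the cerebral cortex and 9 in hippocampal tissue, with median changes of -3.00, -1.43 and -1.47. Mcm2 stood at 5.86, 7.01 and 7.75 in the P1 cerebellum and at 3.07, 3.15 and 3.68 at P15. It fell by 3.74 in the cerebellum, by 1.35 in the cerebral cortex and by 1.47 in the hippocampus (SE 0.18). Gmnn, which encodes geminin, the inhibitor that holds Cdt1 back once S phase has begun, fell by 3.00 in the cerebellum, whereas its changes of 0.04 in the cerebral cortex and -0.51 in hippocampal tissue were not called. In the cerebral cortex its 6 arrays lay at 4.32, 5.03 and 5.40 at P1 and at 4.56, 5.04 and 5.53 at P15, and overlapped.

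Genes of the fork fell in the forebrain as well as in the cerebellum. Of 5 fork members, 4 fell in the cerebellum, 5 in the cerebral cortex and 4 in hippocampal tissue, by medians of 3.27, 2.11 and 2.12. Rfc3, a subunit of the clamp loader, fell by 3.53 in the cerebellum, 3.48 in the cerebral cortex and 3.12 in hippocampal tissue (SE 0.17). Of the 3 members of nucleotide supply, 3 fell in the cerebellum and 2, Rrm1 and Rrm2, in each forebrain region; Tyms, the thymidylate synthase, changed there by -0.36 in the cerebral cortex and -0.34 in hippocampal tissue, not called, from levels under the array median already at P1. Rrm2, the regulated subunit of ribonucleotide reductase, which makes the DNA precursors, stood at 9.22, 9.85 and 9.94 in the P1 cerebellum, at 8.26, 8.47 and 8.82 in the cerebral cortex and at 7.82, 8.28 and 8.75 in the hippocampus. At P15 it stood at 3.81, 5.25 and 5.66, at 3.69, 4.05 and 4.21, and at 4.05, 4.47 and 5.11 in the same order of regions. Its falls were 4.74, 4.50 and 3.71 (SE 0.20), so P1 and P15 arrays were apart in each region. Pola1, the catalytic subunit of the priming polymerase, changed by -0.61 in the cerebellum (adjusted p = 0.0116, t short of the limit), where it lay near the array median at both ages.

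Genes of mitosis fell mainly in the cerebellum. Of 12 spindle and checkpoint members, 11 fell in the cerebellum, 5 in the cerebral cortex and 6 in hippocampal tissue, by medians of 3.02, 0.74 and 0.80. In the cerebral cortex Bub1, Bub1b, Aurka and Plk1 lay under the array median already at P1, and in the hippocampus Bub1b, Aurka and Plk1 did. A fall from such levels may be missed, so the forebrain counts and medians may be understated. Birc5, which encodes survivin of the chromosomal passenger complex, had the lowest t of any member in the cerebellum. Its levels in the P1 cerebellum were 7.19, 7.90 and 8.46, and those of P15 were 2.64, 2.86 and 3.06, below the array medians. It fell by 4.96 there (SE 0.18, adjusted p = 1.62e-29), by 1.15 in the cerebral cortex (from 3.56, 3.74 and 4.47) and by 1.41 in the hippocampus (from 3.77, 4.42 and 5.0). The mitotic exit genes Cdc20, the activator of the anaphase-promoting complex, and Ube2c, its ubiquitin-conjugating enzyme, fell in all 3 regions, by 3.24 and 4.54 in the cerebellum. Bub1b, a checkpoint kinase, lay close to the array median in every group, with changes of -0.49 in the cerebellum and 0.06 in the cerebral cortex that were not called.

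Of the 6 chromatin members, all 6 fell in either forebrain region and 5 in the cerebellum. Uhrf1, which brings the methyltransferase Dnmt1 to newly copied DNA, fell by 4.62 in the cerebellum (from 6.28, 7.62 and 8.25 to 2.66, 2.90 and 3.10), by 1.13 in the cerebral cortex and by 1.48 in the hippocampus. Dnmt1 itself fell by 1.74 in the cerebral cortex and 1.37 in hippocampal tissue, and its change of -0.83 in the cerebellum was called without the 3 dim and 2 displaced arrays (-0.98). Ezh2, the methyltransferase of Polycomb, stood at 7.91, 8.32 and 8.59 in the P1 cerebral cortex and at 3.48, 3.72 and 4.03 at P15, a fall of 4.57 (adjusted p = 1.69e-30). The cerebellum went from 8.18, 8.50 and 8.73 to 4.92, 5.37 and 5.77, a smaller fall of 3.12, and the hippocampus fell by 3.24. The transcription factors E2f1 and Foxm1 fell in the cerebellum by 1.37 and 1.64, and neither was called in the forebrain. Foxm1 lay under the array median in both forebrain regions already at P1.

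Ccne1, cyclin E1, the partner of Cdk2 at the entry to S phase, went the other way in the cerebral cortex. Its 6 arrays lay at 3.65, 4.01 and 4.27 at P1 and at 4.81, 5.05 and 5.58 at P15, with no overlap. The rise was 1.12 (SE 0.19, adjusted p = 1.23e-06). In the hippocampus it went from 4.05, 4.19 and 4.70 to 4.49, 4.95 and 5.38 (0.70, adjusted p = 0.00198, t under 4), and in the cerebellum from 4.74, 5.42 and 5.88 to 4.66, 4.87 and 5.08 (-0.52, adjusted p = 0.022, t short of the limit). By P84 it was higher than at P1 by 1.28 in the cerebral cortex and by 0.84 in the hippocampus, both called. Its paralogue Ccne2 gave 0.96 in the cerebral cortex (3.72, 4.33 and 4.90 to 4.48, 5.30 and 5.73, adjusted p = 0.00796, t short of the limit), while it fell by 1.59 in the cerebellum.

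The difference between regions in this change was tested in the same fit. The P15 minus P1 change was lower in the cerebellum than in the cerebral cortex for 34 of 47 members (5.21% of all probe sets) and lower than in the hippocampus for 33 (2.88%), with median differences of -1.64 and -1.49. The 6 cyclins and kinases were called against the cerebral cortex (median -2.61), as were 11 of 12 spindle members (median -2.19), 7 of 11 licensing members and 1 of 5 fork members (median -0.18). Birc5 had the lowest t in both tests, at -3.81 against the cerebral cortex and -3.55 against the hippocampus. Ezh2 was the 1 member whose change was higher in the cerebellum than in the cerebral cortex (1.45, adjusted p = 8.97e-07). Ccne1 differed by -1.64 (adjusted p = 2.36e-06) and by -1.22 against the hippocampus. Without the 3 dim and 2 displaced arrays the count against the hippocampus was 30, having lost Pcna, Ccne1 and Hmgb2, and that against the cerebral cortex remained 34 members. At P15, 26, 22 and 25 of 47 members lay above the array median in the cerebellum, cerebral cortex and hippocampus. For members under it, these tests cannot separate a steeper fall from a higher level at P1.

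**Figure D3:**
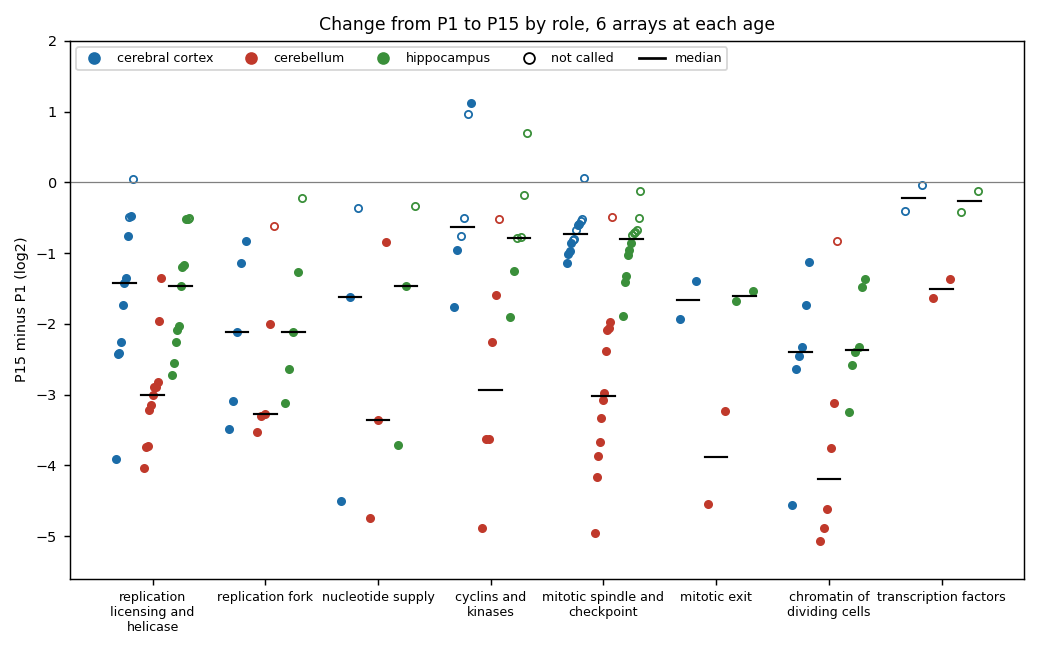
Log2 change from P1 to P15 of each of the 47 members by role, in the cerebral cortex, cerebellum and hippocampus, with genotypes averaged; each point is 1 gene, filled where called, and each bar is the median of the role. Cerebellar points lie lowest for the mitotic roles (median -3.02 for the spindle genes against -0.74 in the cerebral cortex), and Ccne1 in the cerebral cortex is the filled point above 0.

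After P15 little of the fall was left, and what there was lay mainly in the cerebellum. From P15 to P30, 8 members fell in the cerebellum (2.50% of all probe sets fell), 3 in the hippocampus (0.803%) and 1 in the cerebral cortex (0.889%), and 0 rose. Rrm2 was called in all 3 regions, at -2.31 in the cerebellum, -1.38 in the hippocampus and -1.03 in the cerebral cortex; its cerebellar arrays went to 2.37, 2.63 and 2.89. The others in the cerebellum were Mcm6 (-1.72), Top2a (-1.70), the chromatin protein Hmgb2 (-1.65), Mki67 (-1.56), Ube2c (-1.48), Ezh2 (-1.11) and the centromere histone Cenpa (-0.86), and in the hippocampus Hmgb2 (-1.08) and Ezh2 (-1.04). Hmgb2 in the cerebellum went from 10.79, 11.06 and 11.59 at P1 through 6.78, 7.49 and 7.90 at P15 to 5.05, 5.79 and 6.16 at P30. Without the 3 dim and 2 displaced arrays Cenpa was no longer called in the cerebellum, and Bub1 (-0.92) and Cdc20 (-1.03) were. From P30 to P84, 0 members were called in limma (0.437% of all probe sets over the 3 regions), with 1, 6 and 2 members at an unadjusted p under 0.05 in the cerebral cortex, cerebellum and hippocampus. Over the whole span from P1 to P84, Rrm2 fell by 7.46 in the cerebellum.

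At P1 the cerebellum stood above the forebrain, taken as the mean of the cerebral cortex and hippocampus. Of 47 members, 41 were higher in the cerebellum (6.67% of all probe sets) and 0 lower, by a median of 1.94. Ube2c stood at 7.84, 8.71 and 9.53 in the cerebellum, against 4.24, 4.92 and 5.55 in the cerebral cortex and 4.32, 5.12 and 6.21 in the hippocampus, a difference of 3.70 (SE 0.19). Birc5 (3.66), Uhrf1 (3.63), Mki67 (3.45) and Cdk1 (3.37) came next to it, and Mcm2 differed by 2.72. The arrays of the cerebellum did not overlap those of either forebrain region for any of these 6 genes. Pcna differed by 0.98. By role, the 6 cyclins and kinases and the 2 mitotic exit genes were all called, with medians of 2.74 and 3.12, beside 11 of 12 spindle members, 9 of 11 licensing members and 4 of 5 fork members (median 0.89). Ezh2 (0.34, adjusted p = 0.052), Pola1 (0.28) and Dnmt1 (-0.27) were not called, nor were Mcm7, Gins1 and Bub1b. Without the dim array 40 members were called, and without the 5 doubted arrays also 40, Tyms then being the one lost (0.39, against 0.47 with all arrays).

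By P15 the gap was smaller and fewer members were called. At P15 7 members were higher in the cerebellum (7.07% of all probe sets), with a median difference of 0.21 over all 47. Those were Ezh2 (1.13), Mcm7 (1.27), Cdt1 (1.02), Mcm5, Rrm2, Ube2c and Hmgb2, of which Ezh2 and Mcm7 had not been called at P1. This comparison holds the displaced arrays: Cdt1 lay at 2.65 on the one labelled cerebellum and at 3.65 to 4.60 on the 5 others, and at 3.92 on the one labelled hippocampus and at 2.40 to 3.37 on the 5 others. Without those and the dim arrays the count was 9, with Ccne2 (1.25), Bub1 (0.84) and Cdc20 (0.95) in and Rrm2 (0.62) out.

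In older mice single members differed between regions in both directions. At P30 6 members were higher in the cerebellum (9.90% of all probe sets) and 1 was lower (9.96%), and at P84 10 were higher (10.6%) and 2 lower (9.04%), so that at P84 members were called higher more often, and at both ages lower less often, than probe sets in general; these shares were not tested. Ccne2 was higher by 2.28 at P30 and 1.94 at P84: its cerebellar arrays of P30 lay at 5.98, 6.57 and 6.94, above all those of the cerebral cortex (4.18, 4.77 and 5.24) and the hippocampus (3.16, 3.81 and 4.35). Prim1, the catalytic subunit of primase, was higher by 1.18 and 1.67, at 5.18, 5.56 and 6.00 in the P84 cerebellum against 3.66, 3.89 and 4.28 in the cerebral cortex. The other members called higher at both ages were Cdt1, Mcm7, Rrm1 and Ezh2, and Mcm5 was higher by 1.32 at P84.

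Mcm6 stood highest in the hippocampus in older mice. At P30 it lay at 5.63, 5.84 and 6.30 in the hippocampus, at 3.60, 4.11 and 4.43 in the cerebral cortex and at 3.04, 3.44 and 3.66 in the cerebellum, and at P84 the hippocampus lay at 5.45, 5.92 and 6.14. At P30 the hippocampal arrays lay above all others, while those of the cerebral cortex and the cerebellum overlapped. The hippocampus exceeded the cerebral cortex by 1.82 at P30 and 1.78 at P84 (SE 0.22), and the cerebellum lay below the forebrain by -1.60 and -1.18. At P15 its array labelled hippocampus but placed with the cerebellum read 4.32 against 5.21 to 6.41 on the 5 others.

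Between hippocampus and cerebral cortex few members were called at any age. At P1 0 were called in limma (2.22% of all probe sets), with 8 at an unadjusted p under 0.05; Mcm3, a helicase subunit, gave 0.61 (adjusted p = 0.0182), which was called without the 5 doubted arrays. At P15 Ezh2 (0.99) and Mcm7 (1.00) were higher in the hippocampus and the spindle checkpoint protein Mad2l1 was lower (-1.05), of 3.43% of all probe sets called. Without the 5 doubted arrays Mcm7 was no longer called (0.78), and Mcm6 (0.78) and Ccne2 (-1.34) were. At P30 1 member was called (4.04%), Mcm6, and at P84 2 (4.22%), Mcm6 and E2f1 (-0.61).

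Ts1Cje and disomic mice differed little in these genes. Over the 12 comparisons of genotype 1 call was made among 47 members, that of Kif23 in the P1 cerebellum, where 0.494% of all probe sets were called. There 7 members had an unadjusted p under 0.05. In the other 11 comparisons 0 members were called in limma (0.0369% of all probe sets), and the number at an unadjusted p under 0.05 was 0 to 5 per comparison. The share of all probe sets at this unadjusted limit is not given here, so such counts do not show an excess or a lack. Averaged over the 4 ages, 0 were called (0.208%), with 0, 2 and 0 members at an unadjusted p under 0.05 in the cerebral cortex, cerebellum and hippocampus. In those averages the 95% confidence intervals of all 47 members lay within 1 on the log2 scale, from -0.53 to 0.74 in the cerebral cortex, from -0.61 to 0.78 in the cerebellum and from -0.61 to 0.49 in the hippocampus. The averages join P1 with ages at which many members lay under the array median. In the cerebellum 26, 19 and 21 of 47 lay above it at P15, P30 and P84. A difference confined to P1 is diluted there, so these intervals do not bound it. In single comparisons intervals were wider (median half-width 0.58), and in the P1 cerebellum 34 of 47 lay within 1.

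**Figure D4:**
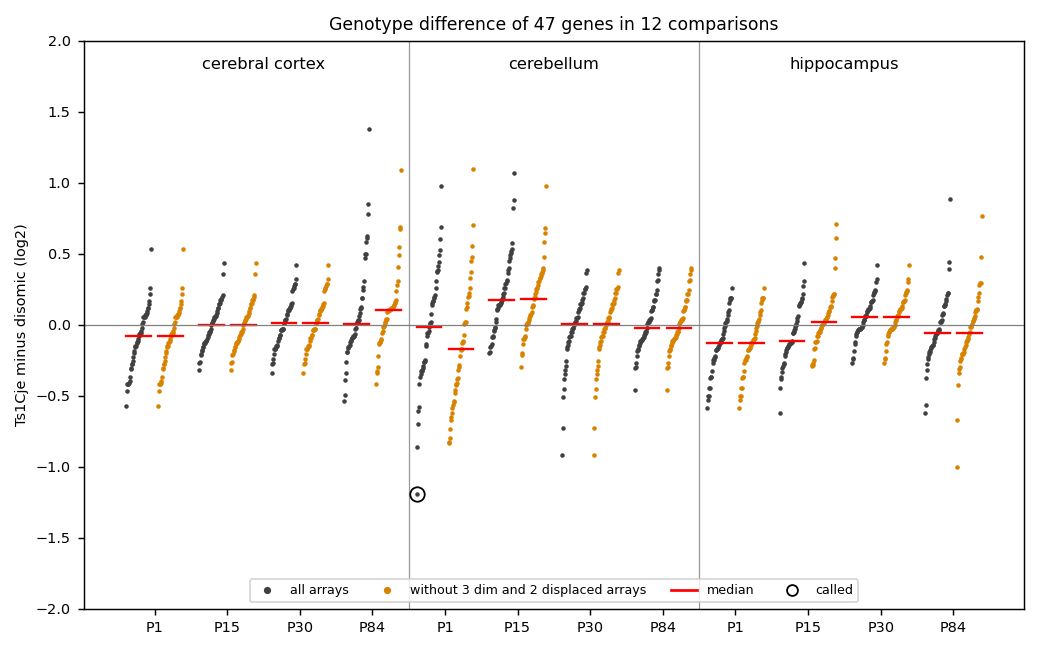
Log2 difference of Ts1Cje minus disomic for each of the 47 members in the 12 comparisons of region and age, with all arrays and without the 3 dim and 2 displaced arrays; each point is 1 gene, each red bar the median, and a circle marks a call. The single circle is Kif23 in the P1 cerebellum with all arrays.

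Kif23 encodes the kinesin that bundles the central spindle for the final split of the cell. In the P1 cerebellum it stood at 5.31, 6.33 and 4.83 in Ts1Cje replicates 1, 2 and 3 and at 6.06, 6.58 and 7.39 in disomic replicates 1, 2 and 3. The groups overlapped, and the highest value came from the dim array. The difference was -1.19 (SE 0.25, 95% confidence interval -1.70 to -0.68, 2.28-fold lower in Ts1Cje, limma adjusted p = 0.0119). Without the dim array it was -0.83 (adjusted p = 0.467), and with Ts1Cje replicate 3 left out as well it was -0.50 (adjusted p = 1.00). The call was also lost without the P1 cerebellum array of Ts1Cje replicate 1 (-1.10, adjusted p = 0.0574) or replicate 3 (-0.86, adjusted p = 0.190). The 2 other probe sets of Kif23 gave -0.28 and, at levels below the array median, -0.05, and the average over ages in the cerebellum was -0.33 (adjusted p = 0.725).

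In the P1 cerebellum mice of one genotype differed widely. The mean over all 47 members was 7.32, 7.33 and 6.51 in Ts1Cje replicates 1 to 3 and 6.84, 7.57 and 6.82 in disomic replicates 1 to 3. The lowest of the 6 arrays was Ts1Cje replicate 3 for 21 members, the dim disomic replicate 3 for 12 and disomic replicate 1 for 11, and the highest was disomic replicate 2 for 27. Granule precursor markers (8 genes, Atoh1 among them) had means of 8.56, 8.48 and 8.07 in Ts1Cje and 8.38, 8.66 and 7.81 in disomic replicates. The same 2 arrays were lowest, in the other order, and the same array highest. The dim array was also the lowest of the 6 for markers of forebrain progenitors (9.11), new neurons (11.44) and cerebellum (7.10). For oligodendrocyte precursors, microglia, endothelium and red blood cells it was not. The part of any of these cells in the spread was not tested. None of the 47 members passed without the dim array, and the median difference went from -0.01 with all arrays to -0.17 without it, with 23 and 18 members above 0. That setting keeps Ts1Cje replicate 3, the array with Xist above Eif2s3y. The means of the other Ts1Cje arrays (7.32 and 7.33) lay above those of disomic replicates 1 and 3 and below that of replicate 2. The size of the median difference thus depended on the dim array, and its sign without Ts1Cje replicate 3 is not given here.

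The defining genes lay within that spread. In the P1 cerebellum Mki67 differed by -0.70 (95% confidence interval -1.58 to 0.18), Mcm2 by -0.31 (-0.81 to 0.19), Top2a by -0.25 (-0.96 to 0.46), Cdk1 by -0.08 (-0.77 to 0.61) and Pcna by -0.05 (-0.38 to 0.29). These intervals leave room for differences of up to 1.58 in Mki67 and 0.38 in Pcna. Averaged over ages in the cerebellum the same genes differed by 0.12, 0.01, 0.06, -0.01 and 0.11. For Mki67 that average joins differences of opposite sign: in the P15 cerebellum Ts1Cje replicates 1 to 3 lay at 3.87, 4.98 and 4.70 and disomic replicates at 3.31, 3.78 and 3.25, the last on a displaced array. The genotypes did not overlap there. The difference of 1.07 (95% confidence interval 0.19 to 1.95, limma adjusted p = 0.883) was not called, and it was 0.98 without the displaced arrays (adjusted p = 1.00). Its change from P1 to P15 between genotypes was 1.77 (adjusted p = 0.434).

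Members could also give a different answer at another of their probe sets. Of the 107 probe sets of the members, 2 were higher (0.406% of all probe sets) and 1 lower (0.0887%) in the P1 cerebellum. Hmgb2 at its brightest probe set differed by 0.37 (adjusted p = 0.564), and at the third of its probe sets by mean it differed by 1.16 (SE 0.15, adjusted p = 3.31e-06), with Ts1Cje at 4.29, 4.46 and 4.57 and disomic at 3.29, 3.58 and 2.99, around the array median. The genotypes did not overlap there, and the difference was 1.01 without the dim array (adjusted p = 6.46e-04). At the second probe set of Hmgb2, on arrays reading 10.01 to 10.77, the difference was 0.05 (limma adjusted p = 0.961). E2f1 differed by -0.58 (adjusted p = 0.121) at its brightest probe set and by 0.78 (SE 0.17, adjusted p = 0.0139) at the second of its 3 by mean, where Ts1Cje lay at 4.64, 5.29 and 4.83 and disomic at 4.26, 4.40 and 3.74. That call was lost without the dim array (0.59, adjusted p = 0.463). Mcm3 differed by -0.86 (adjusted p = 0.0529, Ts1Cje at 5.45, 6.54 and 5.80, disomic at 6.44, 6.59 and 7.34), while its other probe sets gave -0.09 to 0.30. A fit that blocked same-numbered mice of an age called Mcm3 at the brightest (adjusted p = 0.0339), and without the dim array it gave -0.59 (adjusted p = 0.836).

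**Figure D5:**
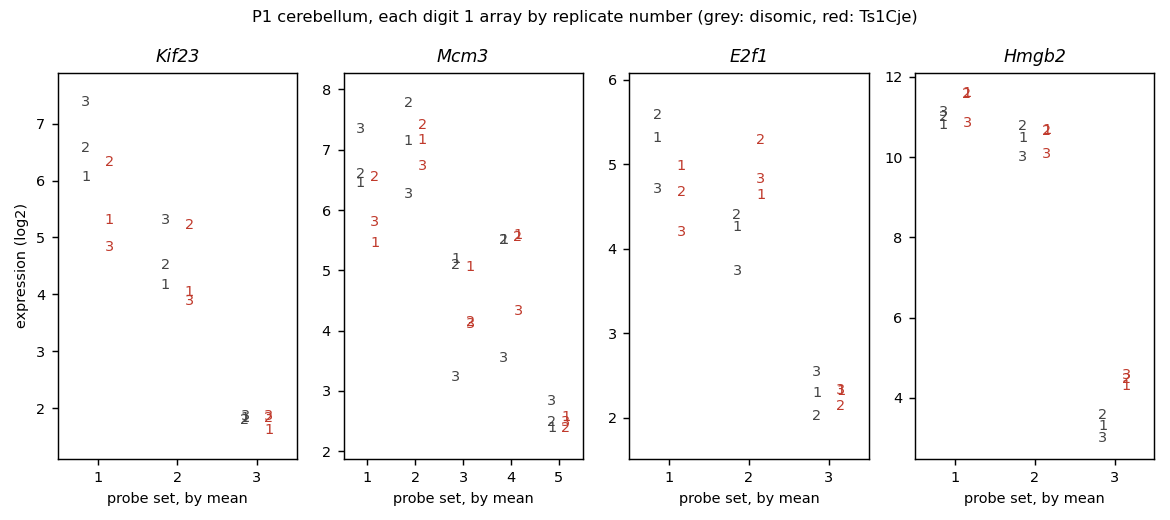
Log2 expression of Kif23, Mcm3, E2f1 and Hmgb2 on the 6 P1 cerebellum arrays at each of their probe sets, ranked by mean over all arrays; each digit is the replicate number of 1 array, red for Ts1Cje and grey for disomic. Ts1Cje lies above disomic at the third probe set of Hmgb2 (4.29 to 4.57 against 2.99 to 3.58) and the groups overlap at its first.

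At the probe sets chosen for the members, the genotype difference did not pass a test of change between regions at P1 or from P1 to P15. Hmgb2 did so at the third of its probe sets: the difference in the P1 cerebellum was above that in the cerebral cortex by 1.11 and in the hippocampus by 1.57, and it fell by 1.15 from P1 to P15 (adjusted p = 0.0204). In tests of the difference between regions at P1, 0 members were called in limma (0.00961% of all probe sets over 3 tests), with 4, 7 and 1 reaching an unadjusted p under 0.05 for the cerebellum against the cerebral cortex, the cerebellum against the hippocampus and the hippocampus against the cerebral cortex. In tests of the change from P1 to P15, 0 were called (0.00370%), with 0, 6 and 1 at an unadjusted p under 0.05 in the cerebral cortex, cerebellum and hippocampus. At P15 the cerebellum gave a median difference of 0.18 over the members, 35 of 47 above 0, and without the 2 displaced arrays the median was again 0.18 with 37 above 0. Hmgb2 in the P84 cerebral cortex had Ts1Cje at 6.10, 6.31 and 6.80 and disomic at 5.25, 5.38 and 4.45, the last on a dim array (1.38, adjusted p = 0.0810).

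Replication genes that do lie in the triplicated segment were read in the same fit. Donson, a replication fork factor, gave 0.70 to 1.25 over the 12 comparisons and was called higher in Ts1Cje in 9 of them, not in the P1 and P15 cerebral cortex and the P30 hippocampus. In the P1 cerebellum it gave 1.07 (adjusted p = 0.00565), and 0.77 without the dim array (adjusted p = 0.313, not called). Its averages of 0.97, 1.05 and 1.01 in the cerebral cortex, cerebellum and hippocampus were all called (adjusted p = 1.22e-08, 6.39e-10 and 2.79e-09). At the 1 probe set read for it, Chaf1b, a subunit of the chromatin assembly factor, was called only in the P1 cerebellum (0.95, adjusted p = 0.0185, Ts1Cje at 5.13, 5.62 and 4.89, disomic at 4.69, 4.45 and 3.66), and not without the dim array (0.65, adjusted p = 0.574). It gave 0.80 in the P1 cerebral cortex and 0.34 in the P1 hippocampus, not called. The paper, by its own test, lists Chaf1b as higher in Ts1Cje at P1 in every region. Its differences for the P1 cerebral cortex and hippocampus are larger than those read here, so the estimates differ as well as the tests. Whether both used the same probe set was not checked.

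Other cell cycle genes, 116 measured outside the members, were read from a list chosen by function. From P1 to P15, 90 fell in the cerebellum (11.0% of all probe sets fell) and 0 rose, while either forebrain region had 51 that fell (13.0% in the cerebral cortex, 10.4% in the hippocampus) and 4 that rose (10.8% and 8.68%). Without the 3 dim and 2 displaced arrays 93, 55 and 55 fell in the cerebellum, cerebral cortex and hippocampus. With all arrays, those that fell in the cerebellum were 26 of 32 genes of S phase, 45 of 51 of M phase and 19 of 33 of G1 control. The mitotic kinase gene Pbk fell by 4.92 and the spindle gene Tacc3 by 3.18 there. In the cerebral cortex the cell cycle brake Cdkn1c fell by 4.30 and in the hippocampus by 3.62, next to Cdk4, the cyclin D partner, at -2.37 and -1.81. The securin gene Pttg1 rose in the forebrain (cerebral cortex 2.51, hippocampus 1.45), and another brake, Cdkn2d, by 0.86 and 0.55. At P1 84 of the 116 were higher in the cerebellum than in the forebrain (6.67% of all probe sets) and 1 was lower (7.49%), Myc (-2.05). Between genotypes 0 of the 116 were called in the P1 cerebellum in limma (23 at an unadjusted p under 0.05) and 0 in the averages over ages (3, 8 and 3). Without the share of all probe sets at the unadjusted limit, whether 23 is many cannot be told.

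Markers of other cells were read on the same arrays, against the shares of all probe sets just given; in the cerebellum 10.9% rose from P1 to P15. In the P1 cerebellum 7 of 8 granule precursor markers were higher than in the forebrain (median 2.73), and 5 of 8 fell there from P1 to P15 (median -1.63), beside the members. All 6 markers of new neurons fell from P1 to P15 in each region. Markers listed as forebrain progenitors fell in 3 of 7 cases in the cerebral cortex, 4 of 7 in the hippocampus and 5 of 7 in the cerebellum (median -1.36). At P1, 4 of these 7 were higher in the cerebellum than in the forebrain (median 0.69) and 0 were lower. Of 8 microglial markers, 8 rose in the cerebral cortex, 7 in the hippocampus and 0 in the cerebellum. The displaced arrays stand out in this list, with a mean of 6.73 on the one labelled cerebellum and 4.42 on the one labelled hippocampus, and without the 5 doubted arrays 8, 8 and 0 rose. Of 5 markers of oligodendrocyte precursors, which also divide, 3, 4 and 2 rose in that order of regions and 1 fell in the cerebellum; without the doubted arrays 5, 5 and 2 rose. In the P1 cerebellum 0 markers of any of the 9 lists were called between genotypes with all arrays, and without the doubted arrays Barhl1, a transcription factor of granule precursors, was called (-1.07, adjusted p = 2.15e-04, against -0.67 with all arrays). Endothelial markers averaged 3.67, 3.50 and 3.29 in Ts1Cje and 4.34, 4.07 and 3.61 in disomic replicates. The part of any of these cells in the members' values was not tested.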

How the data were processed

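Total RNA of 3 brain regions was measured on 72 arrays, in 24 groups of 3 mice read from the labels. Log2 values were deposited by the authors after gcRMA (background modelled from probe base composition, normalization across arrays, probes summarised per probe set); processing notes of the submitters name GCRMA without a version. The table was used as it stands, with no filter and no further normalization, and scanner files were not used here. Differences close to the floor may be understated, and 3 mice per group limit the precision. In the platform annotation 34958 of 45101 probe sets carried 1 symbol, 932 several and 9211 none; 34754 were matched by identifier to RefSeq's gene table. For 35 members with several probe sets the one with the highest mean was taken, and the others stand beside it where they differed.

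The model was limma 3.58.1 (R 4.3.3) with 1 mean per group and 48 residual degrees of freedom. Both limits of a call, 4 on the size of the moderated t and 0.05 on the Benjamini-Hochberg adjusted p, follow the methods. Region and age contrasts average the genotypes. Regions came from the same mice, which the model treats as independent. Same-numbered mice of both genotypes were compared by their deviations from the group means: 23 of 36 pairs correlated above 0.1 (-0.26 to 0.70) and 24 correlated best with their own number, every pair passing in the P1 and P30 cerebral cortex and not in the other 10 comparisons, where they were taken to share only a number. Known changes were put into simulated arrays made after the P1 cerebellum comparison (45101 probe sets). Calls recovered 6 of 67 at 0.58 (log2), 30 of 67 at 1 and 56 of 66 at 2, and 6 calls were false. These figures are not given by expression level, nor for a group that holds a dim array. They therefore do not show how many changes or false calls to expect among the members, some of low level. The same holds for the real P1 cerebellum arrays.

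The members and gene lists were chosen with earlier results of these data known. Named genes were members called between genotypes, those with the 3 highest and 3 lowest moderated t in each age or region comparison where they added to the text, members moving against the rest, and Mki67, Top2a, Pcna, Mcm2 and Cdk1; Hmgb2, E2f1 and Mcm3 at further probe sets were chosen after their values were seen. Alternatives were a replicate block, the mouse as a random block, a prior with trend and robust fit, quantile normalization, equal upper quartiles, a filter at a mean of 5, 1 fit per region or comparison, all or other probe sets of a gene, no limit on t, and arrays left out. The P84 minus P1 contrasts, the tests between regions of the P1 to P15 change, fits without arrays of Ts1Cje replicate 3 or without other single P1 cerebellum arrays, and the counts of pathway and marker lists without the 5 doubted arrays were added after seeing the data. Promoter windows of 300 bases came from RefSeq (GRCm38.p6) and held 40 of 48 members.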

Additional observations from a re-analysis of the deposited data

Results flagged for a closer look

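The change of Ccne1, cyclin E1, with age differed between regions; its rise in the cerebral cortex was called and its change of -0.52 in the cerebellum was not. The P15 minus P1 change in the cerebellum lay 1.64 below that in the cerebral cortex on the log2 scale (difference -1.64, limma adjusted p = 2.36e-06). Another 2 values come from the P1 cerebellum, at probe sets outside those used for the members' counts. The third probe set of Hmgb2 was higher in Ts1Cje by 1.16, where Ts1Cje arrays read 4.29 to 4.57 and disomic arrays 2.99 to 3.58; the disomic levels lie around the array median. At that probe set the difference also exceeded those in the cerebral cortex by 1.11 (adjusted p = 0.0281) and in the hippocampus by 1.57 (adjusted p = 4.43e-05). The brightest probe set of Hmgb2, given above, was not called in the P1 cerebellum. Its second, also far above the array median, gave 0.05 there (limma adjusted p = 0.961). The second probe set of E2f1 was higher in Ts1Cje by 0.78, against -0.58 at the brightest.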

How the results depend on the processing

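For 65 values of named genes, 1457 of 1493 alternatives kept the direction and the call, 36 kept the direction and lost the call, and 0 turned it. For the 14 counts of members called, 326 of 374 alternatives stayed within 1.5 times. The count of 1 in the P1 cerebellum became 0 with 1 fit per region or 1 fit per comparison, 0 with the filter at a mean of 5, 0 without the dim array or without the 3 dim and 2 displaced arrays, 0 without the P1 cerebellum array of Ts1Cje mouse 1 or 3, 0 without Ts1Cje mouse 3 and the dim array, 2 without that of Ts1Cje mouse 2, of disomic mouse 1 or of disomic mouse 2, 2 with equal upper quartiles, and 3 with quantile normalization or with all probe sets. With the replicate block within each age it was 2. In the P1 and P30 cerebral cortex, where the numbers may pair the mice, that block left 0 members called, as did the fit without it.

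In the other 11 comparisons 1 member was called with the filter, without the 2 displaced arrays, or without Ts1Cje mouse 3 and the dim array. With all probe sets 1 member was called in the averages over ages, 3 in the differences at P1 between regions and 1 in the P1 to P15 change; without the P1 cerebellum array of disomic mouse 2 these last counts were 3 and 1, and without that of Ts1Cje mouse 2 the former was 1. The filter at a mean of 5 left few members to count: 12 lower from P1 to P15 in each region, 5 in later steps, and 10, 3 and 5 higher in the cerebellum at P1, P15 and P84. The second probe sets gave 28, 16 and 17 lower from P1 to P15 in the cerebellum, cerebral cortex and hippocampus, 5 in later steps, and 25, 3, 1 and 3 higher in the cerebellum from P1 to P84; they cover members with several probe sets alone. With no limit on t, 16 were higher in the cerebellum at P15, 12 differed between hippocampus and cerebral cortex and 23 changed in later steps.

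Leaving out each replicate number in turn gave 0 to 2 in the P1 cerebellum (0 without Ts1Cje replicate 1, Ts1Cje replicate 3 or disomic replicate 3, and 2 without Ts1Cje replicate 2), 0 to 0 in the other 11, the averages and both tests of change, 25 to 31 lower in the cerebral cortex, 43 to 44 in the cerebellum and 29 to 32 in the hippocampus from P1 to P15, 11 to 14 in later steps, 4 to 8 between hippocampus and cerebral cortex, and higher in the cerebellum 39 to 42 at P1, 3 to 8 at P15 (3 without Ts1Cje replicate 2 or disomic replicate 2), 4 to 7 at P30 and 8 to 9 at P84. Where a setting changed a count, the cause was not tested. Levels below the array median limit what folds can show.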
